A study of Homo sapiens with 3 samples.

Results

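The expression of 10 genes used as markers of the epicardium and of related mesothelium was followed in chambered cardiac organoids (CCOs). The genes were WT1, TBX18, TCF21, SEMA3D, UPK3B, MSLN, BNC1, ITLN1, CALB2 and LRRN4, chosen by name from the 32738 genes of a merged table of unique molecular identifier (UMI) counts, in which each UMI stands for 1 captured RNA molecule. All 10 were among the 20394 genes that had a UMI in at least 10 barcodes. The CCOs were made from the human embryonic stem cell line H7 by flat-culture cardiac differentiation with the Wnt pathway activator CHIR99021 followed by the Wnt secretion inhibitor IWP-2, after which the cells were gathered into organoids with Matrigel. The library of day 8 (D8) was taken just after the organoids formed, that of day 14 (D14) after growth in cardio-sphere growth medium, and that of day 21 (D21) after further culture in RPMI with B27. All 3 groups share the line and the protocol, none carries an edited allele, and each day is 1 library, so that nothing measures how organoids or differentiations vary and no test between days was possible.

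The epicardium is the mesothelial sheet that covers the heart. It arises from the proepicardium, a cell cluster beside the septum transversum, and some of its cells undergo an epithelial-to-mesenchymal transition (EMT) and enter the myocardium, where they give rise to fibroblasts and mural cells. WT1, TBX18 and TCF21 are transcription factors of the proepicardium and epicardium, and each is also used in other mesoderm, for example WT1 in the urogenital ridge and TCF21 in pharyngeal mesoderm and in fibroblasts.

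Because WT1, TBX18 and TCF21 carried the difference at D21 described here, the promoters of these 3 genes are shown, each from 250 bases before to 50 bases after the first listed transcription start in RefSeq (GRCh38.p14). Capitals mark matches, on either strand, to the E-box CANNTG, which TCF21 and other basic helix-loop-helix factors recognise, and to the GATA motif AGATAA. The WT1 promoter lies on the minus strand at chr11:32435490-32435789, the TBX18 promoter on the minus strand at chr6:84764549-84764848, and the TCF21 promoter on the plus strand at chr6:133888863-133889162.
WT1: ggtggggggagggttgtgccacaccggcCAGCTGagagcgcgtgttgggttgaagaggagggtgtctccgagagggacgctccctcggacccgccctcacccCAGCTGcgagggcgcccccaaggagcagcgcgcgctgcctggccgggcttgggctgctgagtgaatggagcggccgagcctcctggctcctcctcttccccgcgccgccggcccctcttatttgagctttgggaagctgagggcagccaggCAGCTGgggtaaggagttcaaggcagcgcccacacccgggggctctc
TBX18: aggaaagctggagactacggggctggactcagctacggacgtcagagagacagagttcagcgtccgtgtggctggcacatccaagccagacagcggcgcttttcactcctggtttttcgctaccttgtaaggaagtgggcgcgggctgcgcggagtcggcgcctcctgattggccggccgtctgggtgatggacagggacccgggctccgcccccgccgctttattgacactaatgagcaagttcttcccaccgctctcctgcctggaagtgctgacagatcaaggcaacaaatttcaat
TCF21: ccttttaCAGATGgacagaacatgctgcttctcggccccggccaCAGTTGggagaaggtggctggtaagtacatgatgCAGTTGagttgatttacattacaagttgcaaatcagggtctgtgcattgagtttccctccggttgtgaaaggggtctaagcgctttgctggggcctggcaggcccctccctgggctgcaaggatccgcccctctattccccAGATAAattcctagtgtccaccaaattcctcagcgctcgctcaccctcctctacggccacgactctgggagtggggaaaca
The WT1 window held 3 E-boxes and the TCF21 window 3 E-boxes and 1 GATA motif, while the TBX18 window held neither. None of the 3 windows held the TEAD motif GGAATG or the T-box motif AGGTGTGA. Over 35116 promoter windows of the same length, 68.7% held an E-box, 10.3% the GATA motif, 14.0% the TEAD motif and 0.98% the T-box motif, so E-boxes are common and the matches are a description of letters, not of bound sites. The windows of the matched motifs did not overlap one another. Of the 10 genes, 7 matched a promoter entry by symbol. WT1 had 4 entries, of which only the first is shown. Entries 2, 3 and 4 held 1, 0 and 1 E-boxes, and entry 4 also held 2 TEAD motifs, so the WT1 matches depend on the entry used.

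After filtering, of 17327 barcodes the D8 library kept 2657 cells, the D14 library 3585 and the D21 library 1946, with 46767738, 50247286 and 30898727 UMIs and medians of 15316, 12282 and 14105.5 UMIs per cell. Clustering of all kept cells, with the 10 genes and the gene lists used below left out, gave 19 clusters, of which 16 held at least 90% of their cells from 1 day. No cluster met the marker rule for mesothelium. Cluster 1, with 827 D21 cells, had 7 of 8 cardiac fibroblast markers and is called fibroblast-like, and cluster 5, with 486 D21 cells, is called cardiomyocyte (CM)-like. The cell barcode sequences of 33 kept cells occurred in more than 1 library. In whole libraries, fewer cells of a type and less RNA per cell cannot be told apart.

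The transcription factors WT1, TBX18 and TCF21 were at low levels at D8 and D14 and higher at D21. Levels are given as CPM, the UMIs of a gene per 1000000 UMIs of the cells summed. The 3 libraries had WT1 at 0.813, 0.816 and 9.94 CPM in the order of the days. TBX18, a T-box factor, was at 0.214, 0.159 and 3.43 CPM, and TCF21, a basic helix-loop-helix factor, at 3.93, 4.26 and 34.1 CPM. For each of the 3 the D8 and D14 values lay together and the D21 value apart: the ratio of D21 to D14 was 12.2 (95% interval 8.77 to 17.3) for WT1, 21.5 (10.5 to 51.2) for TBX18 and 8.02 (6.92 to 9.33) for TCF21, while the ratio of D14 to D8 was 1.00 (0.630 to 1.60), 0.745 (0.255 to 2.10) and 1.08 (0.885 to 1.33). TBX18 rested on 10, 8 and 106 UMIs in the 3 libraries. All intervals here are exact (Poisson for a CPM, conditional binomial for a ratio, Clopper-Pearson for a share) and cover counting error only.

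SEMA3D, a secreted guidance ligand of the semaphorin family, went from 2.82 CPM at D8 to 4.76 at D14 and 9.09 at D21, with ratios of 1.69 (1.36 to 2.10) and 1.91 (1.60 to 2.28) for the 2 steps. It was the 1 gene of the 10 that was higher at each later day with both intervals above 1. ITLN1, a secreted lectin made by mesothelium, was at 0.641, 0.557 and 2.04 CPM, so that only its D21 value stood apart (ratio to D14 3.66, 2.31 to 5.93).

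MSLN, BNC1 and LRRN4 were lowest at D21. MSLN, the surface protein mesothelin, was at 0.449 CPM at D8 and 1.41 at D14, and had a single UMI among 30898727 at D21. BNC1, a zinc finger factor of mesothelium and keratinocytes, was at 1.197, 0.955 and 0.356 CPM, and LRRN4, a leucine-rich repeat membrane protein, at 13.5, 19.2 and 8.48 CPM. The ratios of D21 to D14 for these 3 genes were 0.0229 (0.000572 to 0.132), 0.373 (0.175 to 0.728) and 0.442 (0.384 to 0.507). UPK3B, a uroplakin of the mesothelial surface, stayed between 0.577 and 0.796 CPM, and its ratio of D21 to D14 was 0.976 (0.563 to 1.66). CALB2, the calcium-binding protein calretinin, was at 3.83, 4.22 and 2.07 CPM, and at D21 34 of its 64 UMIs (53.1%) came from 1 fibroblast-like cell of 22684 UMIs. Without that cell CALB2 was at 0.972 CPM at D21.

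**Figure D1:**
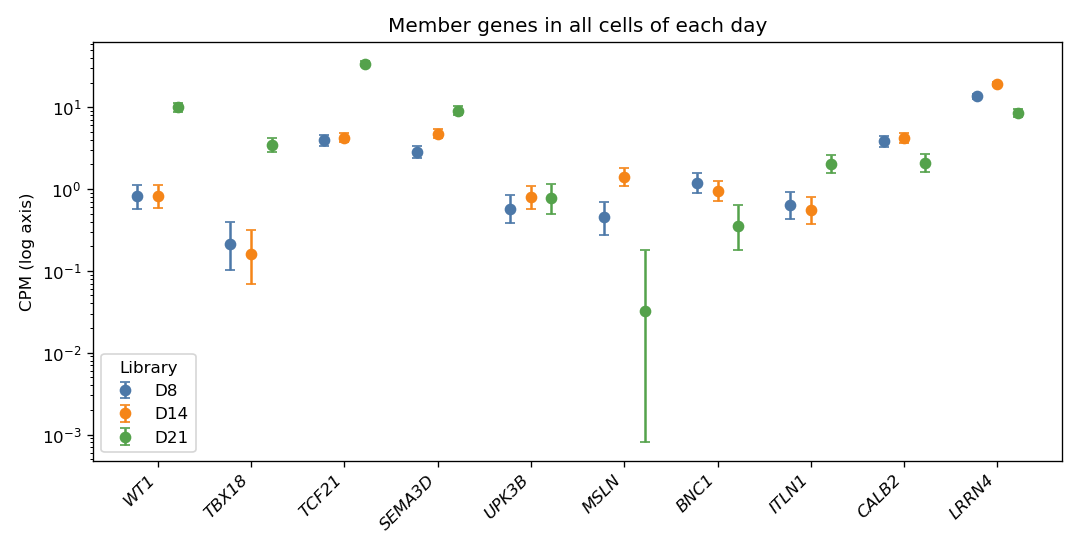
CPM (log axis) of the 10 genes in all cells of the D8, D14 and D21 libraries, with exact 95% Poisson intervals as bars. The D21 points of WT1 (9.94), TBX18 (3.43) and TCF21 (34.1) stand above both earlier days, while that of MSLN (0.0324, from 1 UMI) stands below.

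With 1 library a day, a gene was called where its CPM with 10 added differed by 2-fold or more. By this rule TCF21 alone of the 10 was called between D21 and D14, at 3.10-fold higher, beside 1.68% of 20394 genes called higher and 1.79% called lower. The median log2 fold of the 10 was 0.09 and that of all genes -0.04. Adding 10 CPM holds low genes such as TBX18 near no change, and with 1 CPM added 3 of the 10 were called higher. At that setting neither genes called lower nor the share over all genes was counted, so the 3 have no background beside them. Scaling by trimmed mean of M-values shifted the ratio of D21 to D14 by 0.26 on the log2 scale for every gene, which left the direction of WT1, TBX18, TCF21 and SEMA3D as it was.

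Within D21, most UMIs of WT1, TBX18, TCF21 and SEMA3D lay in the fibroblast-like cells. These made up 42.5% of the D21 cells and held 36.3% of all D21 UMIs, but 78.5% of the WT1 UMIs (241 of 307), 77.4% of TBX18 (82 of 106), 79.6% of TCF21 (840 of 1055) and 74.4% of SEMA3D (209 of 281). Fibroblast-like cells had WT1 at 21.5 CPM (18.8 to 24.4) and the other D21 cells at 3.35, a ratio of 6.40 (4.86 to 8.54). TBX18 was at 7.31 CPM (5.81 to 9.07) and 1.22, a ratio of 5.99 (3.76 to 9.87). TCF21 was at 74.8 CPM (69.9 to 80.1) and 10.9, a ratio of 6.85 (5.89 to 7.99). SEMA3D was at 18.6 CPM (16.2 to 21.3) and 3.66, a ratio of 5.09 (3.88 to 6.75). The 4 genes thus differed between the same groups of cells by ratios whose intervals overlap.

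Cluster 16, 136 dividing D21 cells with 3 of the 8 fibroblast markers, held 44 of the 66 WT1 UMIs outside the fibroblast-like cells, 19 of 24 for TBX18, 137 of 215 for TCF21 and 24 of 72 for SEMA3D. WT1 was at 18.1 CPM there, TBX18 at 7.81, TCF21 at 56.3 and SEMA3D at 9.87. WT1 and TBX18 could not be separated from their fibroblast-like levels at this depth (ratio of fibroblast-like to cluster 16 of 1.19, 0.858 to 1.68, and 0.935, 0.563 to 1.63), whereas TCF21 and SEMA3D were lower in the dividing cells (1.33, 1.11 to 1.60, and 1.89, 1.23 to 3.01). Cluster 17, 59 unnamed D21 cells led by CXCL14 and MYL2 with a median doublet score of 0.214, had TCF21 at 42.1 CPM and SEMA3D at 15.5 CPM with WT1 at 3.44 CPM.

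CM-like cluster 5 and the cells of cluster 11 were low for all 4 genes. In cluster 5, WT1 was at 1.48 CPM, TBX18 at 0.148 (1 UMI), TCF21 at 1.04 and SEMA3D at 1.78. In cluster 11, 306 D21 cells that carried 8 hepatic and 7 foregut markers, WT1 was at 0.133 CPM (1 UMI), TCF21 at 1.46 and SEMA3D at 1.73, and TBX18 had no UMI, which places the fibroblast-like level at least 18.3-fold higher against a floor of 3 UMIs over the cluster. The smaller CM-like cluster 18, with 50 cells, had WT1 at 8.23 CPM (2.24 to 21.1, 4 UMIs), TCF21 at 14.4 CPM (5.79 to 29.7, 7 UMIs), SEMA3D at 6.18 CPM (3 UMIs) and no TBX18 UMI. The ratio of fibroblast-like to cluster 5 cells was 14.5 (7.74 to 30.6) for WT1 and 72.1 (34.8 to 179.9) for TCF21. As a reading of free RNA, the 1496 D21 barcodes with fewer than 1000 UMIs had TCF21 at 22.6 CPM (14.5 to 33.6), WT1 at 7.53 (3.25 to 14.8) and TBX18 at 2.82 (3 UMIs), values that lay between those of cluster 5 and those of the fibroblast-like cells.

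**Figure D2:**
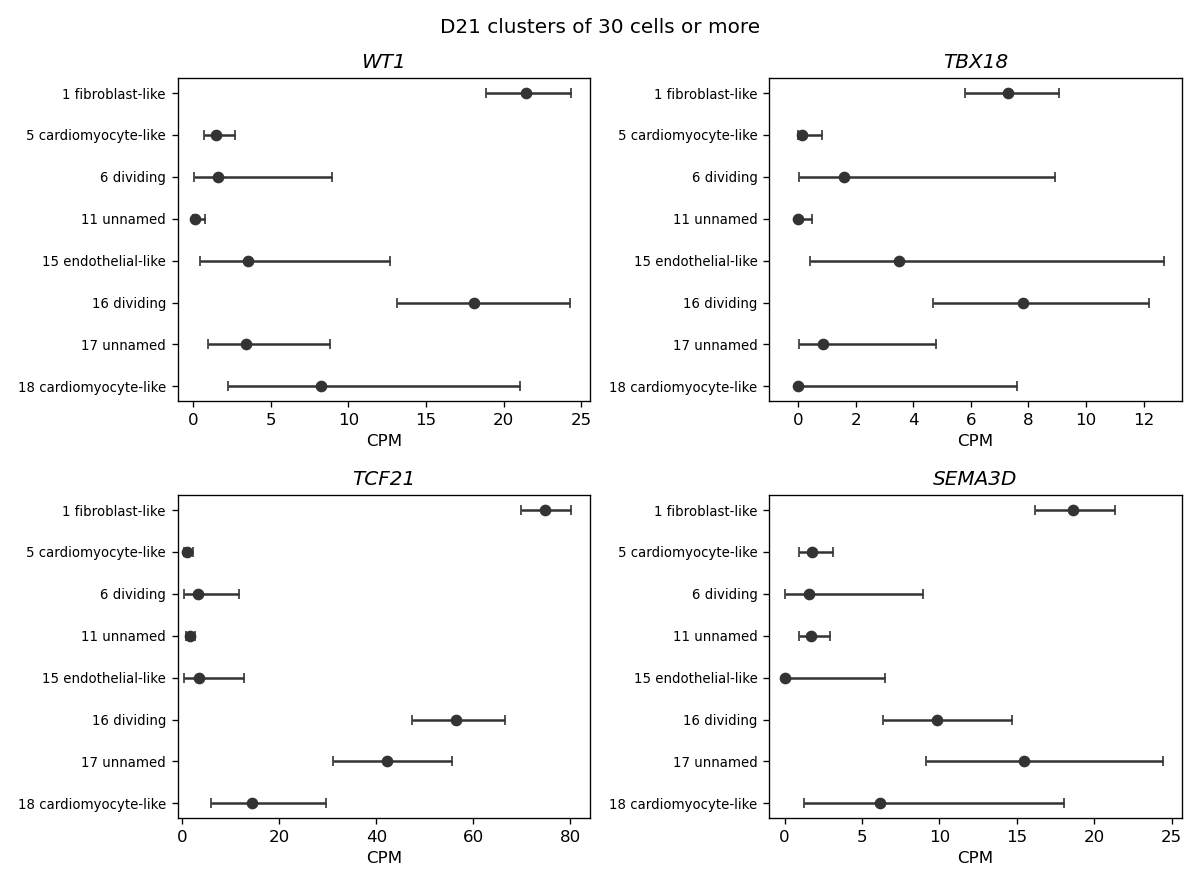
CPM of WT1, TBX18, TCF21 and SEMA3D in each D21 cluster of 30 cells or more, with exact 95% Poisson intervals. In every panel the fibroblast-like cluster 1 and the dividing cluster 16 lie above the CM-like cluster 5 and cluster 11.

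The share of cells with a UMI showed the same order after each cell was thinned to 4000 UMIs. WT1 was detected in 6.89% (5.26 to 8.84) of fibroblast-like cells and 0.206% of CM-like cluster 5 cells, TBX18 in 2.42% and 0.206%, TCF21 in 19.3% and 0.617%, and SEMA3D in 6.29% and 1.03%. The median depths of these fibroblast-like and cluster 5 cells were 12690 and 12975 UMIs. CM-like cells should lack these genes, so the cluster 5 shares were taken as a reading of the background, which may be higher. In CPM, the low-UMI D21 barcodes read for free RNA had WT1 at 7.53 and TCF21 at 22.6. Cluster 5 had 1.48 and 1.04. The smaller CM-like cluster 18 was also higher than cluster 5 for WT1 and TCF21, from few UMIs, and had no TBX18 UMI. These readings lay below the fibroblast-like levels. Without thinning the fibroblast-like shares were 19.8% for WT1, 8.10% for TBX18, 34.9% for TCF21 and 17.3% for SEMA3D. In CM-like cluster 5 cells they were 1.85%, 0.206%, 1.44% and 2.26%. Detection in these cells was thus limited by depth, and a cell without a UMI is not shown to lack the transcript.

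The other 6 genes did not share this distribution. ITLN1 was lower in fibroblast-like than in other D21 cells (0.891 and 2.69 CPM, ratio 0.331, 0.150 to 0.657) and was higher in CM-like cluster 5 (4.15 CPM, ratio to the other D21 cells 2.86, 1.68 to 4.85). In the D21 barcodes with fewer than 1000 UMIs ITLN1 was at 8.47 CPM (3.87 to 16.1) and LRRN4 at 10.3 CPM (5.17 to 18.5), so for ITLN1 no D21 cluster had a higher level than these barcodes. LRRN4 did not separate the groups at this depth (8.29 and 8.59 CPM, ratio 0.965, 0.741 to 1.25), nor did UPK3B (0.876, 0.325 to 2.17) or BNC1 (3.07, 0.780 to 14.3, from 7 and 4 UMIs). CALB2 had a ratio of 4.85 (2.73 to 9.003), with 34 of its 47 fibroblast-like UMIs in 1 cell. MSLN had no UMI in fibroblast-like cells, and the single D21 UMI was in cluster 11.

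By the 2-fold rule with 10 CPM added, 3 of the 10 were called higher in fibroblast-like cells, WT1 at 2.36-fold, SEMA3D at 2.10-fold and TCF21 at 4.05-fold, and none was called lower. TBX18 was at 1.54-fold. Over all 20394 genes 2.23% were called higher and 3.42% lower. The median log2 fold was 0.22 for the 10 genes and 0 for all genes. Where cells with 5% or more mitochondrial UMIs were left out, the other D21 cells fell from 1119 to 218, only TCF21 was still called, and the ratio of fibroblast-like to other D21 cells was 2.41 (1.65 to 3.62) for WT1, 1.77 (1.02 to 3.26) for TBX18, 2.62 (2.12 to 3.25) for TCF21 and 2.70 (1.76 to 4.29) for SEMA3D. With a limit of 20% the other D21 cells numbered 2757, and the ratio was 11.8 (7.57 to 18.9) for TBX18 and 11.3 (9.87 to 13.0) for TCF21.

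Other genes of the epicardium and its derivatives were read from 4 lists, set by name and left out of the clustering, with the exception that DCN is also a fibroblast marker. Of 18 further epicardial and mesothelial genes, EFEMP1, an extracellular matrix fibulin, and GATA5, a GATA factor of proepicardium, were called higher in fibroblast-like cells. ALDH1A1, a retinaldehyde dehydrogenase, the keratin KRT19, the adhesion molecule BCAM and the complement protein C3 were called lower, and the median log2 fold of the list was -0.47. Of these, ALDH1A1, KRT19 and C3 were highest in cluster 11 at D21, at 363.5, 502.2 and 229.3 CPM. For ALDH1A2, the retinoic acid enzyme of embryonic epicardium, fibroblast-like cells held 1.51 CPM and the others 1.47. The keratins KRT8, KRT18 and KRT19 had levels of 392.5, 480.2 and 43.9 CPM in fibroblast-like cells, whereas UPK1B, KRT7, GPM6A, PRG4, HAS1, RSPO1 and SBSPON had 5 UMIs or fewer there.

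Of 12 genes of EMT and epicardial derivatives, 7 were called higher in fibroblast-like cells and none lower, with a median log2 fold of 1.61. The EMT transcription factor SNAI2 had 80.4 CPM in fibroblast-like and 13.4 in other D21 cells. The level of the growth factor receptor PDGFRB was 153.9 and 23.8 CPM, and the matrix protein POSTN at 269.2 and 50.7 CPM. These genes are widely expressed by fibroblasts, and the cluster was named from fibroblast markers, so the count is a description. PDGFRA, another growth factor receptor, ZEB2, an EMT factor, THY1, a fibroblast surface antigen, and DCN, the matrix proteoglycan decorin, were the others.

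Of 12 genes of pharyngeal and second heart field mesoderm none was called higher in fibroblast-like cells, and NKX2-5, a cardiac homeobox factor, was called lower (49.9 and 174.4 CPM). Of 12 genes of septum transversum, hepatic mesenchyme and urogenital ridge, 11 could be tested and 1 was called higher, HGF, a growth factor secreted by mesenchyme, at 122.8 CPM in fibroblast-like and 23.7 CPM in other D21 cells. GATA4, a GATA factor of heart and septum transversum, was at 116.7 CPM and 62.8 CPM. PAX2, PAX8, NR5A1 and LHX9, which mark urogenital tissue that also uses WT1, had no UMI in the fibroblast-like cells. They were rare in the whole series, with a UMI in 36, 66, 11 and 5 of 17327 barcodes. The median log2 fold was 0.02 for the second heart field list, 0.51 for the septum transversum and urogenital list and 0 for all genes.

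Before D21 the same genes lay in other cells. At D14 TCF21 was highest in cluster 12, 292 unnamed cells with EBF2 and TMEM100 among their leading genes, at 35.0 CPM (29.2 to 41.8), against 1.91 CPM in the other D14 cells (ratio 18.4, 13.9 to 24.4). TCF21 was detected in 10.96% of these cells after thinning and 21.9% without, and in none of the 650 CM-like D14 cells of cluster 4 after thinning (up to 0.566%) and 0.154% without, at median depths of 11677 and 12767 UMIs. These TCF21 cells differed from those of D21 in the other factors: WT1 was at 0.841 CPM there (3 UMIs) and TBX18 had no UMI. The fibroblast-like level at D21 was 2.14 times (1.77 to 2.60) that of cluster 12 for TCF21, 25.5 times (8.63 to 124.7) for WT1, with 3 UMIs in cluster 12, and at least 8.69-fold higher for TBX18.

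In cluster 12 the second heart field gene ISL1 was at 259.9 CPM and NKX2-5 at 210.8 CPM, and in the D21 fibroblast-like cells at 14.6 and 49.9 CPM. By the 2-fold rule against the other D14 cells, TCF21 (3.78-fold) and SNAI2 were among those called higher of the 10 genes and the lists, and LRRN4, PDPN, NGFR and GATA4 were called lower, beside 0.417% of all genes called higher and 1.84% lower. Cluster 12 had GATA4 at 7.29 CPM and HGF at 2.80 CPM, against 116.7 and 122.8 CPM in the D21 fibroblast-like cells. SNAI2 was at 40.4 CPM in cluster 12, and was called higher both there and in the D21 fibroblast-like cells against the other cells of the day. Between the whole D21 and D14 libraries, 5 of the 12 second heart field and pharyngeal genes were called lower and none higher, among them ISL1, NKX2-5, EBF3 and FGF10, beside 1.79% of all genes called lower and 1.68% called higher.

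The few WT1 UMIs of D8 lay mostly in cluster 0, 1107 unnamed cells with TSHZ2 and EBF2 among their leading genes. This cluster held 32 of the 38 at 1.99 CPM (1.36 to 2.81). TCF21 was at 6.84 CPM in that cluster and at 7.97 CPM in the dividing D8 cluster 9, levels whose intervals overlap (5.62 to 8.24 and 6.03 to 10.3). At D14 the highest WT1 level was 2.02 CPM, from 9 UMIs, in cluster 10, an unnamed group led by MGP and CTSB. This cluster had 3 of the 8 fibroblast markers. It was left unnamed because the smooth muscle marker RGS5, and no fibroblast marker, was among its 10 leading genes. The D21 fibroblast-like level of WT1 was 10.6 times (5.51 to 23.6) that of cluster 10.

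SEMA3D was also detected in epithelial cells. In the epithelial cluster 8, led by PRSS1, TTR and FOXA2, it was at 8.91 CPM (6.79 to 11.5) at D8 and 32.2 CPM (27.3 to 37.7) at D14, where the ratio to the other D14 cells was 17.4 (13.3 to 23.0). It was detected in 11.96% of the D14 cells of cluster 8 after thinning (33.5% without, median 20529 UMIs) and in none of the 650 CM-like D14 cells at either depth, which allows a share of cells with a UMI of up to 0.566%. WT1 had no UMI in cluster 8 at D8 or D14, so the SEMA3D-high cells of D14 were not WT1-detected cells.

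At D8 and D14 both LRRN4 and CALB2 were highest in CM-like cells. LRRN4 was at 40.2 CPM in the CM-like cluster 7 of D8 (ratio to other D8 cells 4.78, 4.07 to 5.60), at 43.8 CPM in CM-like cluster 4 of D14 (3.18, 2.79 to 3.62) and at 14.7 CPM in CM-like cluster 5 of D21 (2.17, 1.68 to 2.81). An unnamed D14 group led by SLIT2 and CNTN5, cluster 3, had LRRN4 at 32.1 CPM. CALB2 was at 7.72 CPM in CM-like cluster 7 of D8 (2.50, 1.80 to 3.45) and 13.0 CPM in CM-like cluster 4 of D14 (5.71, 4.31 to 7.56), but at D21 it was at 0.741 CPM in CM-like cluster 5, lower than in the other D21 cells (0.303, 0.0950 to 0.749). At all 3 days LRRN4 was thus higher in a CM-like cluster than in the other cells of its day. The remaining low genes had no group that reached 3 CPM except ITLN1, which at D21 had 6.01 CPM in cluster 17 and 4.15 CPM in CM-like cluster 5.

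**Figure D3:**
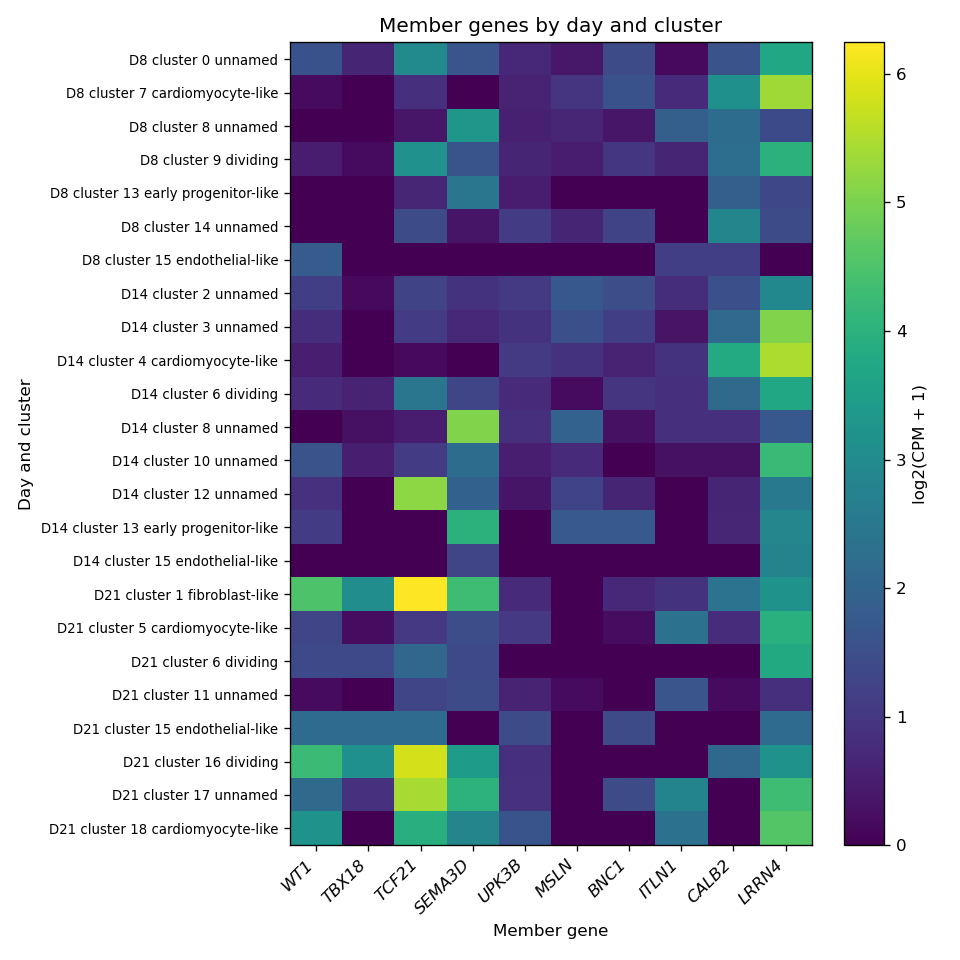
log2(CPM + 1) of the 10 genes in the 24 groups of at least 30 cells of 1 day and 1 cluster. TCF21, WT1 and TBX18 are brightest in the D21 fibroblast-like cells and D21 dividing cluster 16, SEMA3D in D14 cluster 8 (32.2 CPM), and LRRN4 in the CM-like groups of D8 and D14.

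Across the same 24 groups, which share libraries and differ in depth, the level of WT1 correlated with that of TBX18 (Pearson r = 0.79, of log2(CPM + 1)) and TCF21 (0.73), less with SEMA3D (0.33) and LRRN4 (0.18), and negatively with MSLN (-0.40). The 5 genes most like WT1 were SLC27A3, HGF, ASPN, MIR503HG and GDF10, with r of 0.83 to 0.84. Those most like TBX18 were HOXB7 (0.91), HIC1, HOXB6, HOXB9 and SLC27A3, and those most like TCF21 were the collagen receptor gene DDR2 (0.91), COL6A3, FBN1, GDF10 and CYBRD1. SEMA3D had looser neighbours, PCDH11X (0.79), GALNT3, HNMT, PLAC9 and NR2F2. SLC27A3 stood beside both WT1 and TBX18, and GDF10 beside both WT1 and TCF21. These values describe the ordering of groups and carry no test.

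Most D21 cells in which any of the 10 genes was detected had only 1 of them. After thinning, 415 of 1946 D21 cells (21.3%) had a UMI of at least 1 of the genes, 46 (2.36%, 1.74 to 3.14) of at least 2, and 4 of at least 3. Of fibroblast-like cells, 278 of 827 (33.6%) had at least 1 and 39 (4.72%) at least 2, while 1 of 486 CM-like cluster 5 cells had at least 2. With all UMIs, 186 fibroblast-like cells (22.5%) and 13 CM-like cells (2.67%) had at least 2, and the largest number in any D21 cell was 5.

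**Figure D4:**
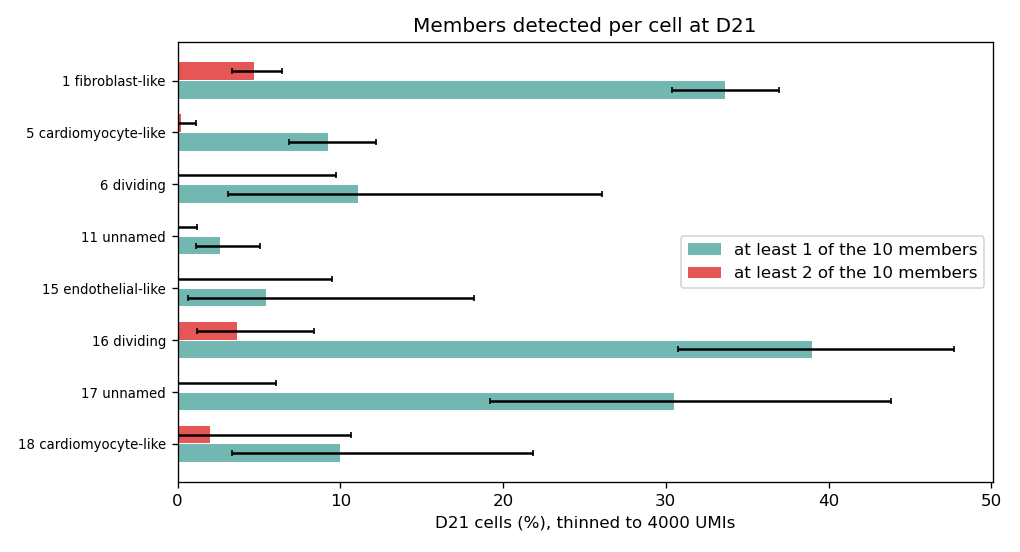
Share of the cells of each D21 cluster with a UMI of at least 1 and at least 2 of the 10 genes after thinning to 4000 UMIs, with exact 95% intervals. The bars of at least 2 genes are highest in fibroblast-like cells (4.72%) and dividing cluster 16 (3.68%), and 0 of 306 cells reach it in cluster 11 (upper limit 1.198%).

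Co-detection was then read within the fibroblast-like cells, so that the difference between clusters did not enter. After thinning, 57 of these cells had WT1, and TCF21 was detected in 12 of them (21.1%, 11.4 to 33.9), against 19.2% (16.5 to 22.2) in cells without WT1. The thinning was a random draw. Another draw over the same 827 cells, made with cluster 17 left out, put TCF21 in 25.37% of the WT1 cells. TBX18 was found in 1 of the 57 cells and SEMA3D in 3. With all UMIs, 164 cells had WT1 and 77 of them TCF21 (47.0%, 39.1 to 54.9), against 32.0% (28.4 to 35.7) of cells without WT1. The 2 readings differ, and the WT1 cells were a little deeper with all UMIs (median 13454.5 and 12311). Within the shallow, middle and deep parts of these cells, the TCF21 share was 39.0% with WT1 and 28.5% without, 45.8% and 29.5%, and 53.1% and 38.4%. In each part the intervals with and without WT1 overlapped.

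For TBX18 and SEMA3D the intervals of cells with and without WT1 overlapped. With all UMIs TBX18 was in 9.15% (5.21 to 14.6) of fibroblast-like cells with WT1 and 7.84% (5.91 to 10.2) of those without, and SEMA3D in 12.8% (8.10 to 18.9) and 18.4% (15.5 to 21.6). TBX18 cells had TCF21 in 47.8% (35.4 to 60.3), against 33.8% (30.5 to 37.3) of cells without TBX18. Of the 827 cells, 9 had WT1, TBX18 and TCF21 together, 1 of which also had SEMA3D, and 342 had none of the 4. Over all D21 cells, TCF21 was in 42.4% of the 210 WT1 cells and 17.9% of the rest, and TBX18 in 9.52% and 3.86%, values that also hold the difference between clusters.

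Detection of LRRN4 differed with WT1 among fibroblast-like cells. With all UMIs it was in 33 of 164 WT1 cells (20.1%, 14.3 to 27.1) and in 4.68% (3.20 to 6.57) of the other 663. By depth the shares were 9.76% and 2.13% in the shallow cells, 20.3% and 5.53% in the middle and 26.6% and 6.64% in the deep cells, with overlapping intervals only in the shallow cells. After thinning it was in 3 of 57 WT1 cells (5.26%) and 2.08% of the others, which the depth could not separate. Thus LRRN4, which did not differ between fibroblast-like and other cells as a whole, was not spread evenly within the fibroblast-like cells.

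**Figure D5:**
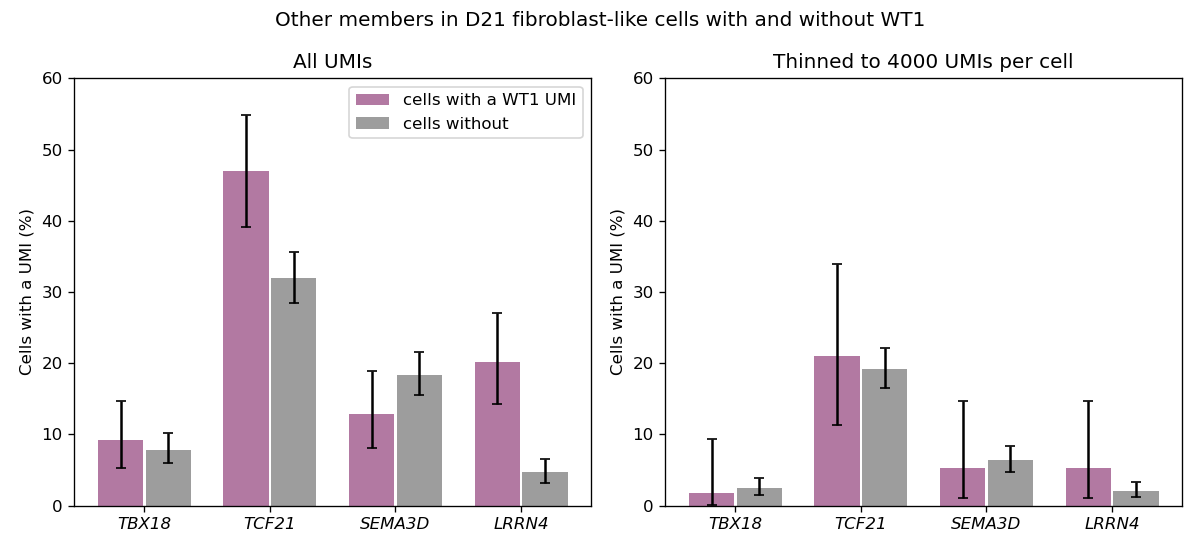
Share of D21 fibroblast-like cells with a UMI of TBX18, TCF21, SEMA3D and LRRN4, in cells with and without WT1, after thinning to 4000 UMIs and with all UMIs, with exact 95% intervals. With all UMIs LRRN4 (20.1% and 4.68%) and TCF21 (47.0% and 32.0%) differ beyond their intervals, and in the thinned draw shown no pair does.

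Levels were then compared between fibroblast-like cells with and without each gene, a split chosen after the co-detection values had been seen. With WT1 (164 cells against 663), LRRN4 was at 22.8 CPM and 4.22 CPM, a ratio of 5.42 (3.51 to 8.44) that no single cell carried, since it had at most 5 UMIs in a cell. TCF21 was at 1.66 times its level without WT1 (1.43 to 1.92), TBX18 at 0.868 (0.469 to 1.52) and SEMA3D at 0.577 (0.375 to 0.857). KRT19, an epithelial keratin, was at 71.8 CPM with WT1, where 1 cell held 43 of its 176 UMIs, and 36.1 without. Of the 10 largest folds over all genes, KDR, a VEGF receptor, was at 161.2 and 41.1 CPM and had UMIs in 54 WT1 cells, and SLITRK6, a neuronal membrane protein, was at 24.1 and 5.47 CPM in 25 WT1 cells, whereas for IL24 and SST a single cell held 46 of 96 and 81 of 105 UMIs.

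The cells with TCF21 and those with SEMA3D had other leading genes than the WT1 cells. With TCF21 (289 cells against 538), AQP3, a water and glycerol channel, was at 57.2 and 11.5 CPM, NKD2, an inhibitor of Wnt signalling, at 33.4 and 6.88 CPM, and SCN7A, a sodium channel, at 18.8 and 2.87 CPM, with UMIs in 93, 78 and 53 TCF21 cells. WT1 was at 1.60 times (1.23 to 2.08) and LRRN4 at 1.91 times (1.25 to 2.94) its level without TCF21, but KRT19 at 0.511 times (0.412 to 0.631), the opposite direction to the WT1 split. With SEMA3D (143 cells against 684), the contractile genes SLN, ACTG2 and MYH11 and the matrix protein gene MGP were higher, SLN at 179.3 and 46.8 CPM and MGP at 2413 and 1149 CPM. WT1 was at 0.647 times (0.428 to 0.946) and TCF21 at 0.787 times (0.647 to 0.952) its level without SEMA3D. The smooth muscle genes rested on few cells, MYH11 on 8 SEMA3D cells with up to 12 UMIs.

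Finally the 39 fibroblast-like cells with at least 2 of the 10 genes after thinning were set against the 549 with none. NKD2 was at 77.3 and 10.98 CPM, with UMIs in 15 of the 39 cells, and AQP3 at 91.2 and 15.3 CPM, in 14 of them. Most of the 39 cells had TCF21 after thinning, and by definition none of the 549 did. Both genes were also higher in the split by TCF21, so they are not a separate trait of cells with several of the genes. RAMP1, a receptor-modifying protein, RSPO3, a secreted activator of Wnt signalling, GADD45A, a stress-response gene, FST, the activin antagonist follistatin, and THBS4, a matrix thrombospondin, were also among the 10 largest folds, of which RAMP1 had 69 of 123 UMIs and FST 11 of 16 UMIs in 1 cell. The other 3, PTGDS, PTX3 and CST1, came from 1 cell each. SOX9, a transcription factor of chondrogenic and valve mesenchyme, was at 2.15 times (1.56 to 2.89) its level in cells with none of the genes. OSR1, a zinc finger factor of intermediate and lateral mesoderm, was at 0.121 times (0.00305 to 0.689), from 1 UMI in the 39 cells. The 39 cells were shallower than the 549 (median 10906 and 12773 UMIs), and their median doublet scores were 0.0460 and 0.0384.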

How the data were processed

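The authors deposited a merged table of raw UMI counts per gene and cell from 10x Chromium 3' v2 libraries, 1 per day, made per the submitters' processing notes with Cell Ranger, the hg19 build and Seurat 3.2.1. Every column was used (0 left out). Cells with 2000 to 7500 genes and under 10% mitochondrial UMIs (13 genes) were kept (4007 to 95021 UMIs per cell). The counts were clustered in Seurat 5.3.0 (R 4.3.3; 2000 variable genes, less 36 among the 10 genes and the lists; 20 principal components; resolution 0.8). Scrublet (scanpy 1.11.5) called 1, 1 and 7 doublets, so it did not work, and doublets were kept. UMIs were summed per day and cluster as CPM, with exact 95% intervals (Python 3.11.15, scipy 1.17.1). Shares were taken after thinning by a random draw to 4000 UMIs, which every cell reached. The floor was 3 counts. Genes were called at 2-fold with 10 CPM added. edgeR 4.0.16 gave scaling factors only. No p-value was computed, as cells of 1 library are not replicates.

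A cluster was named where at least 3 of 8 fixed markers were 2-fold higher, with 2 more than any other class. The name was dropped where another class had more markers among the 10 leading genes of the cluster. It was also dropped for shallow clusters with none of their own markers among those genes. The named genes were the 10 genes, the members of 4 lists, for WT1, TBX18, TCF21 and SEMA3D the 5 genes with the highest Pearson correlation over day and cluster groups among those with at least 200 UMIs, and the 10 genes with the largest fold in cells with at least 2 of the genes. Genes named in the splits by WT1, TCF21 and SEMA3D fall outside this rule and were chosen among the largest folds after their values were seen. The genes and lists were chosen with earlier results of these data known. The scripts were tested on simulated data.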

Additional observations from a re-analysis of the deposited data

How the results depend on the processing

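The 13 main results were recomputed in 15 other ways that applied to them, which gave 142 values. Of these, 119 moved by less than the counting interval or kept their count, and 23 moved. Whether a direction reversed was not checked. The settings in which barcodes shared between libraries, or cluster 17, were left out were added after seeing the data and moved no result. Without thinning, WT1 was in 19.83% and TCF21 in 34.95% of fibroblast-like cells, TCF21 in 46.95% and LRRN4 in 20.12% of WT1 cells, and 12.9% of D21 cells had at least 2 of the genes. At 8000 UMIs WT1 was in 14.08%, TCF21 in 28.16%, and 7.151% had at least 2. Where 2 UMIs were asked for, WT1 was in 1.209%, TCF21 in 6.167%, both TCF21 and LRRN4 in 0 of the WT1 cells, and 0.1028% had at least 2. These follow from the number of UMIs read or asked for. With a mitochondrial limit of 5%, TCF21 was in 36.36% and LRRN4 in 15.91% of WT1 cells, 4.022% of D21 cells had at least 2 of the genes, 1 of the 10 was called higher in fibroblast-like cells and 2 in D21 over D14. With a limit of 20%, LRRN4 was in 0 WT1 cells and 1.694% had at least 2. The cause of these moves was not tested. A change in the cells kept also redrew the random thinning. With cluster 17 left out, the same 827 fibroblast-like cells had WT1 in 8.102%, and TCF21 was in 25.37% of their WT1 cells. In the main draw these shares were 6.892% and 21.05%. With 1 CPM added, 5 of the 10 were called higher in fibroblast-like cells and 3 in D21 over D14. The 5 included CALB2, which had 34 of its 47 fibroblast-like UMIs in 1 cell. Only genes called higher were counted in these settings, and the shares over all genes were computed in the main setting alone. TMM scaling put TCF21 at 82.51 CPM. The CPM ratio of fibroblast-like cells with WT1 to those without, recomputed in the 9 settings that change which cells enter, was 4.62 to 5.57 for LRRN4 and 1.62 to 1.92 for TCF21. No paired analysis was possible because each day is 1 library. Depth limits the shares of TBX18, UPK3B, MSLN, BNC1, ITLN1 and CALB2, which had from 1 to 106 UMIs at D21.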
